A study of Mus musculus with 6 samples.

Results

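The fibroblast growth factor (FGF) receptors and ligands examined here were 10 genes, taken by symbol from the 24982 genes listed for each library. They were the receptors *Fgfr1*, *Fgfr2*, *Fgfr3* and *Fgfr4*, the ligand family genes *Fgf1*, *Fgf2*, *Fgf7* and *Fgf11*, the binding protein gene *Fgfbp1* and the receptor-like gene *Fgfrl1*. All 10 symbols were found. RNA-seq compared a pair of keratinocyte lines from the neonatal skin of C57BL/6 mice, neither of them treated, with 3 libraries per line. The KSFM-Ca2+ cells were established and kept in a keratinocyte serum-free medium low in calcium. The DKSFM cells descended from them and were the cells that grew out after the move to a defined medium with more calcium, so that medium, survival of the move and added time in culture cannot be told apart. A gene's value is its coverage, the mean number of reads over each of its bases, written to 1 decimal. Coverage summed over genes was 1601676, 1238411 and 1057750 in KSFM-Ca2+ replicates 1 to 3, and 1174348, 1239438 and 1170675 in DKSFM replicates 1 to 3.

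FGFs are secreted proteins that bind receptor tyrosine kinases together with heparan sulfate, the sugar chain of proteoglycans on the cell surface and in the matrix. In skin, mesenchymal cells supply ligands such as FGF7 to an epithelial splice form of FGFR2 on keratinocytes. The activated receptor passes its signal through the adaptor FRS2 to the RAS, MAP kinase and PI3 kinase routes, and ETV transcription factors, Sprouty proteins and dual-specificity phosphatases are among the genes commonly switched on, several of which act back as inhibitors.

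The DKSFM cells had more coverage of the keratinocyte receptors *Fgfr2* and *Fgfr3* and of *Fgfbp1*, and low coverage of *Fgfr1* and *Fgf1*, which were at or near the smallest listed value in the KSFM-Ca2+ cells. *Fgfr4* and *Fgf2* were listed at 0 in all 6 libraries, and *Fgf7* at 0 in 5 of them. Of the genes known to follow FGF signalling, those that changed by 2-fold or more were mostly lower in the DKSFM cells. *Etv4*, *Etv5*, *Dusp6* and *Ccnd1* were among those lower, *Epha4* was higher, and others changed by less than 2-fold or did not pass the test. Expression was tested with limma on log2(normalized coverage + 0.1), where normalized coverage is coverage scaled between libraries by a trimmed mean. The test covered 12409 genes, those whose normalized coverage reached 0.5 in 3 or more libraries. A gene was called when its Benjamini-Hochberg adjusted p over these genes was under 0.01 and its change at least 2-fold. Of the 10 genes, 7 were tested and 3 were too low. The calls were 5 higher and 0 lower in the DKSFM cells, beside 13.2% of all tested genes called higher and 10.5% called lower. At an unadjusted p under 0.05 in limma, the same counts were 5 and 0, where all tested genes gave 40.6% higher and 41.3% lower. Of the genes called, *Fgfr1* and *Fgf1* entered the test only through their DKSFM values. The median log2 fold change over all tested genes was 0.00, and 72.6% of them had an adjusted p under 0.01 in limma. How many of all tested genes had no overlap between the lines was not counted, so a lack of overlap does not set the genes below apart.

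The keratinocyte label was checked on marker genes. All 5 keratinocyte markers had coverage in every library, and the most abundant, the basal keratin gene *Krt14*, lay between 10157.3 and 15411.2 in the KSFM-Ca2+ libraries and between 28001.0 and 29028.4 in the DKSFM libraries. *Krt14* and *Krt5* were called higher in the DKSFM cells (log2 fold change 1.31 and 1.25, the former 0.93 with quantile normalization), while *Trp63*, *Itga6* and *Cdh1* stayed under 2-fold. Summed normalized coverage of the keratinocyte markers was 17290, 17710 and 17450 in the KSFM-Ca2+ libraries and 42890, 39080 and 43250 in the DKSFM libraries.

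Of 8 fibroblast markers, the collagen genes *Col1a1*, *Col1a2* and *Col3a1* and the genes *Dcn*, *Lum*, *Pdgfrb* and *Thy1* were listed at 0 everywhere. *Pdgfra* made up the whole fibroblast sum, 1.14, 0.89 and 1.3 in the KSFM-Ca2+ and 2.34, 2.10 and 2.23 in the DKSFM libraries. The 5 melanocyte markers summed to 0.53, 0.89 and 0.71 against 0.32, 0.60 and 0.21, with *Pmel* the most abundant and *Dct* and *Tyr* at 0. Among 4 endothelial markers, *Pecam1* was called higher in the DKSFM cells (log2 fold change 1.42) and *Cdh5* was listed at 0. Their sums were 2.82, 3.16 and 3.30 against 8.28, 8.29 and 7.42. The 5 immune markers summed to 10.9, 11.2 and 12.6 against 13.6, 18.9 and 20.6, nearly all from *Cd68*, while *Cd3e* was listed at 0 and *Ptprc* reached 0.1 in 1 library. The part of these low values in the results below was not tested. In bulk RNA, a change in the number of cells that express a gene and a change in RNA per cell cannot be told apart.

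Promoter sequences are shown for the receptors and the binding protein that rose together, *Fgfr2*, *Fgfr3* and *Fgfbp1*, and for *Fgfrl1*, whose change did not pass the test. RefSeq windows on GRCm38.p6 were matched by symbol for 8 of the 10 genes, all but *Fgfr1* and *Fgf1*. Each window printed runs from 250 bases before the start in the RefSeq table to 20 bases after it. The *Fgfr2* window is chr7:130266789-130267058 on the minus strand, the first *Fgfr3* window chr5:33721474-33721743 on the plus strand, the *Fgfbp1* window chr5:43981780-43982049 on the minus strand and the *Fgfrl1* window chr5:108693979-108694248 on the plus strand. Capitals mark matches on either strand to a TATA box (TATAAA), a GC box (GGGCGG), an AP-1 element (TGANTCA) or an ETS core (CGGAAG).
Fgfr2 promoter: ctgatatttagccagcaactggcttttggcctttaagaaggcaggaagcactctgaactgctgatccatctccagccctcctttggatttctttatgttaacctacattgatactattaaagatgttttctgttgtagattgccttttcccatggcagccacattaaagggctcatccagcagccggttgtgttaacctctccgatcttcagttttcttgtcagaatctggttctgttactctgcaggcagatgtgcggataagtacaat
Fgfr3 promoter: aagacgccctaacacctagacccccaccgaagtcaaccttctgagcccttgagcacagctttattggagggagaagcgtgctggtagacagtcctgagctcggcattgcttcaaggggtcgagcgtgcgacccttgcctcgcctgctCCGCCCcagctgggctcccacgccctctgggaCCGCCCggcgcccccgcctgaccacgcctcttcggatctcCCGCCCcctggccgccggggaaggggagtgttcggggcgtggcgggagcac
Fgfbp1 promoter: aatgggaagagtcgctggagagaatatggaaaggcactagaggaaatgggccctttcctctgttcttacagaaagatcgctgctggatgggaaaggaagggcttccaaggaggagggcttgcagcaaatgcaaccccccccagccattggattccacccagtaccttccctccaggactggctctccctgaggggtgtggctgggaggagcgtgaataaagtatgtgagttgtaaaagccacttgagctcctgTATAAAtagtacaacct
Fgfrl1 promoter: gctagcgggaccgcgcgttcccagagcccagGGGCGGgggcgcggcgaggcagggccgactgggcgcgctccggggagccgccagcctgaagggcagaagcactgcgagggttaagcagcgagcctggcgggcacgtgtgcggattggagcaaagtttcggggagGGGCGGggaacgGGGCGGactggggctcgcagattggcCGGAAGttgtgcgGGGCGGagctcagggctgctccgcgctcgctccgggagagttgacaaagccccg

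The *Fgfr2* window held none of the 4 motifs, and 43.7% of its bases were G or C. The *Fgfr3* window held 3 GC boxes at 67.8% G or C. A further annotated *Fgfr3* start, chr5:33722056-33722325, held 2 GC boxes at 71.9%. In the *Fgfbp1* window a TATA box lay just after the start used for the window, which is inside the outermost start of the gene's span, and 51.9% of the bases were G or C. *Fgfrl1* had 4 GC boxes and 1 ETS core at 72.6%. Among 32851 RefSeq windows of the same length, 12.9% held the TATA box, 34.2% the GC box, 7.23% the AP-1 element and 15.4% the ETS core, and the median share of G or C was 52.6%. No motif searched was in all 4 printed windows, and a match describes letters only.

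*Fgfr2* lies at chr7:130162451-130266808 on the minus strand. Its coverage was 64.7, 46.8 and 37.2 in KSFM-Ca2+ replicates 1 to 3 and 294.0, 301.3 and 298.4 in DKSFM replicates 1 to 3. After scaling these values became 46.5 ± 2.72 (SD, n = 3) and 309.8 ± 7.88 (SD, n = 3), so every DKSFM library stood far above every KSFM-Ca2+ library. The change was 6.66-fold (log2 fold change 2.74 ± 0.05 SE, adjusted p = 1.61e-09 in limma). In level, *Fgfr2* stood above 64.7% of tested genes in the KSFM-Ca2+ cells and above 94.5% in the DKSFM cells. The 155 other tested genes within 10 Mb of *Fgfr2* had a median log2 fold change of -0.43.

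*Fgfr3*, at chr5:33721724-33737068 on the plus strand, encodes a receptor that is also made by keratinocytes. Its coverage was 21.6, 17.4 and 14.6 in the KSFM-Ca2+ libraries and 50.7, 54.3 and 57.3 in the DKSFM libraries. Again the lines did not overlap, although the difference was smaller than for *Fgfr2*. Normalized coverage was 17.0 ± 0.435 against 56.3 ± 3.88 (SD, n = 3 each), a 3.30-fold change (log2 fold change 1.72 ± 0.06 SE, adjusted p = 4.19e-08 in limma). The 144 tested genes within 10 Mb had a median of 0.14. A RIKEN transcript model on the opposite strand shares 437 exon bases with *Fgfr3* in GENCODE, and no value for it was used here.

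*Fgfr1*, at chr8:25518759-25575718 on the plus strand, encodes the receptor usual in mesenchymal cells. Its listed values were 0.0, 0.1 and 0.1 in KSFM-Ca2+ replicates 1 to 3, against 1.4, 2.2 and 1.4 in DKSFM replicates 1 to 3. The KSFM-Ca2+ values did not exceed the rounding step of 0.1, which for a transcript of median length stands for about 5.17 reads at the study's read length. DKSFM coverage was low but above the step in all 3 libraries (normalized coverage 1.72 ± 0.41, SD, n = 3). *Fgfr1* entered the test only through its DKSFM values and was called higher (adjusted p = 3.04e-05 in limma). Since its log2 fold change depends on the pseudocount, 3.46 with 0.1 and 1.34 with 1, no fold is given. Its DKSFM level was above only 11.3% of tested genes.

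The last of the signalling receptors, *Fgfr4*, was listed at 0 in all 6 libraries and could not be tested. Coverage is already per base, so levels of the 4 receptor genes were set side by side, although which bases of each gene were used is not stated. *Fgfr2* ranked first and *Fgfr3* second in every library, and *Fgfr1* came after them where it was above 0.

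Summed over *Fgfr1* to *Fgfr4*, normalized coverage was 65.8, 63.6 and 61.2 in the KSFM-Ca2+ libraries and 367.4, 357.5 and 378.6 in the DKSFM libraries, a ratio of means of 5.79. *Fgfr2* took 75.0%, 72.8% and 71.7% of the summed coverage in the KSFM-Ca2+ libraries and 84.9%, 84.2% and 83.6% in the DKSFM libraries. Its share was thus larger in each DKSFM library than in any KSFM-Ca2+ library. The share of *Fgfr3* went the other way, from 26.7% ± 1.58 to 15.3% ± 0.71 (SD, n = 3 each), even though its own coverage rose. Coverage of *Fgfr2* over that of *Fgfr3* was 2.74 ± 0.229 in the KSFM-Ca2+ cells and 5.52 ± 0.297 in the DKSFM cells. *Fgfr1* made up 0.12% ± 0.10 and 0.47% ± 0.13. The shares are descriptions with no test, and the deposited values give no splice forms, so the ligand specificity of the receptors could not be read from them.

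**Figure D1:**
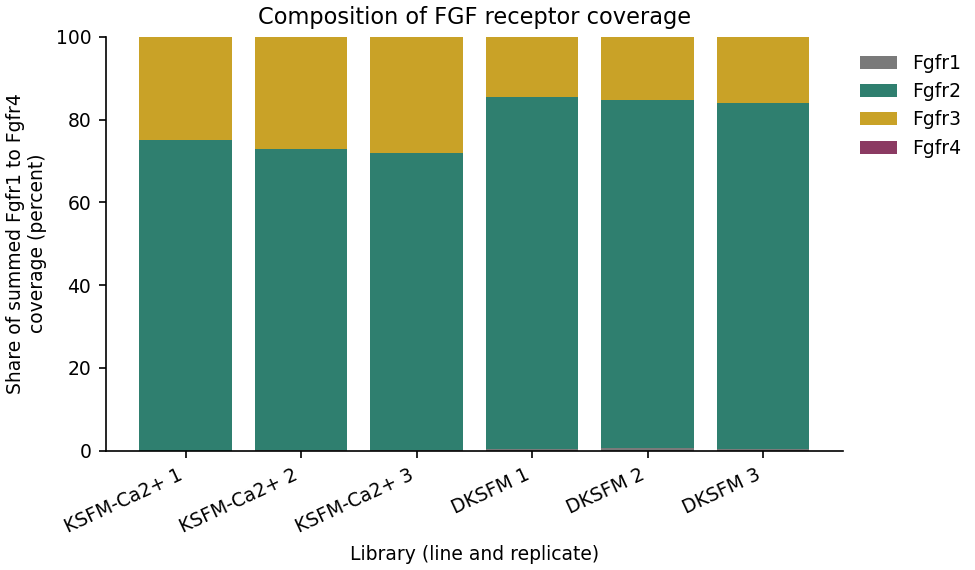
Bars show the share of *Fgfr1*, *Fgfr2*, *Fgfr3* and *Fgfr4* in their summed coverage (percent, vertical axis) in each library (horizontal axis). *Fgfr2* fills 71.7% to 75.0% of the KSFM-Ca2+ bars and 83.6% to 84.9% of the DKSFM bars, *Fgfr3* nearly all of the rest, and *Fgfr4* none.

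*Fgfrl1*, at chr5:108694229-108706950 on the plus strand, encodes a receptor-like protein that binds FGFs but lacks the kinase domain. Coverage was 13.1, 12.8 and 7.6 in the KSFM-Ca2+ libraries and 9.1, 8.7 and 8.2 in the DKSFM libraries. The lines overlapped, with KSFM-Ca2+ replicate 2 the highest after scaling. The log2 fold change of -0.21 ± 0.12 SE did not pass the test (adjusted p = 0.148 in limma), and with only the libraries whose files were marked as combined it was 0.006.

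Patterns over the 6 libraries were compared by the root mean square difference in centred log2 values, smallest for the most alike genes. For *Fgfr2* these were *Gstk1* (0.049), *Large2* (0.053) and *Pou3f1* (0.054). For *Fgfr3* they were *Nrg2* (0.042), *Pink1* (0.050) and *Klf4* (0.053), an epidermal transcription factor gene whose normalized coverage was 53.5, 56.9 and 62.4 against 185.5, 191.0 and 205.7. With 3 libraries in each of a pair of lines, the measure mostly reflects a like fold change.

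Among the ligand genes, *Fgf1*, whose product binds all of the FGF receptors, was the one called. *Fgf1* lies on chromosome 18. Coverage of *Fgf1* was 0.2, 0.0 and 0.0 in the KSFM-Ca2+ libraries, against 1.3, 1.2 and 1.0 in those of DKSFM. Every DKSFM value lay above every KSFM-Ca2+ value, at a low level in both lines (DKSFM normalized coverage 1.21 ± 0.16, SD, n = 3). *Fgf1* entered the test only through its DKSFM values and was called higher in the DKSFM cells (adjusted p = 9.93e-05 in limma). Over the alternative settings its log2 fold change ran from 1.08, with a pseudocount of 1, to 3.64, without KSFM-Ca2+ replicate 1. It thus depends on the pseudocount and on that library.

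*Fgf11* belongs to the FGF homologous factors, which stay inside the cell and do not activate the receptors. Its coverage was 1.1, 0.8 and 1.2 in the KSFM-Ca2+ libraries and 0.9, 1.8 and 2.2 in the DKSFM libraries. DKSFM replicate 1 fell among the KSFM-Ca2+ values, and the log2 fold change of 0.65 ± 0.34 SE did not pass (adjusted p = 0.108 in limma). This log2 fold change ran from 0.39 to 1.0 when each library was left out. With the libraries named as combined only it was 0.16. *Fgf7*, the mesenchymal ligand of the epithelial FGFR2 form, was listed at 0.1 in KSFM-Ca2+ replicate 1 and at 0 in the other 5 libraries.

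*Fgf2*, a ligand released without a signal peptide, was listed at 0 in all 6 libraries. The opposite strand carries *Nudt6*, which shares 640 exon bases with *Fgf2*. *Nudt6* coverage was 9.3, 7.9 and 6.8 in the KSFM-Ca2+ libraries and 9.6, 10.4 and 6.5 in the DKSFM libraries. The lines overlapped, and the log2 fold change of 0.24 ± 0.15 SE did not pass (adjusted p = 0.186 in limma). The libraries kept strand and were aligned with a strand setting. Whether coverage per gene was also computed by strand is not stated, so that reads of *Fgf2* and *Nudt6* in the shared bases cannot be told apart with certainty.

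*Fgfbp1*, at chr5:43978858-43981828 on the minus strand, encodes a secreted carrier that frees FGFs from heparan sulfate in the matrix. It had by far the most coverage of the 10 genes, 1827.7, 1417.0 and 1166.6 in the KSFM-Ca2+ libraries and 2621.1, 2761.4 and 2670.4 in the DKSFM libraries. Replicates agreed closely after scaling, at 1390 ± 12.6 and 2791 ± 36.5 (SD, n = 3 each), with no overlap. The change was 2.01-fold (log2 fold change 1.01 ± 0.02 SE, adjusted p = 1.06e-08 in limma), right at the 2-fold line. It lay just under that line with library totals (0.99), with quantile normalization (0.98) and without KSFM-Ca2+ replicate 3 or DKSFM replicate 3 (both 1.0 after rounding). In level, *Fgfbp1* stood above 99.1% of tested genes in the KSFM-Ca2+ cells and above 99.7% in the DKSFM cells.

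By mean normalized coverage per base, the order in both lines began with *Fgfbp1*, *Fgfr2*, *Fgfr3* and *Fgfrl1*. In the DKSFM cells *Fgfr1* (1.72 ± 0.41), *Fgf11* (1.70 ± 0.69) and *Fgf1* (1.21 ± 0.16, SD, n = 3 each) came next. *Fgf11* did not differ from the others beyond its spread, while every *Fgfr1* value lay above every *Fgf1* value. In the KSFM-Ca2+ cells *Fgf11* came next (1.01 ± 0.35), and *Fgfr1*, *Fgf1* and *Fgf7* were at or near the rounding step.

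**Figure D2:**
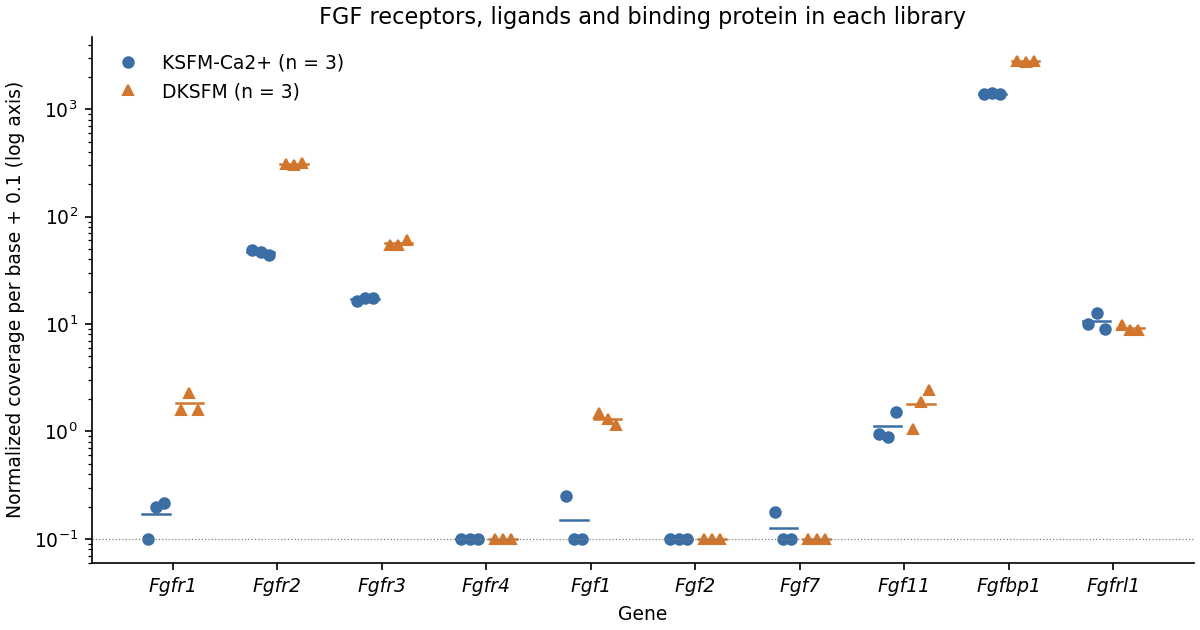
Points show normalized coverage per base plus 0.1 (vertical log axis) of the 10 genes (horizontal axis), circles for the 3 KSFM-Ca2+ and triangles for the 3 DKSFM libraries, with short lines at the means and a dotted line at the value of a gene listed at 0. *Fgfr1*, *Fgfr2*, *Fgfr3*, *Fgf1* and *Fgfbp1* show no overlap between the lines, while *Fgf11* and *Fgfrl1* do and *Fgfr4* and *Fgf2* lie on the dotted line.

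Of 19 other FGF family genes, 12 were listed at 0 in all 6 libraries, 3 were tested, 1 was called higher and 1 lower, beside 13.2% and 10.5% of all tested genes. *Fgf13*, another homologous factor that binds sodium channels, had coverage of 24.1, 19.0 and 13.8 in the KSFM-Ca2+ libraries and 9.5, 8.3 and 6.3 in the DKSFM libraries. It fell 2.14-fold in the DKSFM cells (log2 fold change -1.10 ± 0.14 SE, adjusted p = 1.17e-04 in limma), but was not called without DKSFM replicate 3 (-0.95) or with the libraries named as combined only (-0.97, adjusted p = 0.0366). The hormone-like *Fgf21* was listed at 0.9, 0.7 and 0.5 against 1.4, 1.7 and 1.6. All its DKSFM values were higher, with a log2 fold change of 1.19 ± 0.16 SE (adjusted p = 1.56e-04 in limma). It lay under the 2-fold line with quantile normalization (0.84) and with pseudocounts of 0.5 (0.88) and 1 (0.67). *Fgfbp3*, a second binding protein gene, had 22.1, 15.7 and 17.3 against 27.9, 35.0 and 33.6. Its log2 fold change of 0.93 ± 0.11 SE (adjusted p = 7.90e-05 in limma) was under 2-fold, but reached 1.04 without KSFM-Ca2+ replicate 3 and 1.02 without DKSFM replicate 1. *Fgf5*, *Fgf9*, *Fgf17* and *Fgf18* were not tested, and none of them exceeded 0.2 in any library.

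Of 9 co-receptors and receptor partners, 6 were tested, of which 1 was called higher and 3 lower in the DKSFM cells (median log2 fold change -0.80, against 0.00 over all tested genes), where 13.2% and 10.5% of all tested genes were called. With an unadjusted p under 0.05 in limma the counts were 2 and 3 (40.6% and 41.3% of all tested genes). *Flrt2*, one of the leucine-rich transmembrane proteins that bind FGF receptors, had coverage of 4.3, 3.5 and 2.9 in the KSFM-Ca2+ libraries and 52.1, 52.7 and 50.5 in the DKSFM libraries. The lines were far apart, at a 15.5-fold change (log2 fold change 3.95 ± 0.05 SE, adjusted p = 6.22e-10 in limma). Its relative *Flrt1* went down, from 2.3, 1.9 and 1.7 to 0.3, 0.4 and 0.2 (log2 fold change -2.30, adjusted p = 2.08e-05). *Flrt1* entered the test only through its KSFM-Ca2+ values, and its log2 fold change ran from -2.59 to -1.14 over the alternative settings. With a filter on every library it was not tested, which left 2 of the list called lower. The adhesion molecule gene *Ncam1*, whose product can engage FGF receptors, fell from 30.4, 21.0 and 18.8 to 7.0, 4.2 and 5.3 (log2 fold change -1.96, adjusted p = 1.54e-05), and was not called with the libraries named as combined only (adjusted p = 0.0131). *Nrp1*, coding for neuropilin 1, went from 72.9, 50.1 and 43.3 to 18.2, 18.5 and 18.2 (log2 fold change -1.45, adjusted p = 7.22e-08). In none of these 4 genes did the lines overlap, which the naming rule required. The Klotho genes *Kl* and *Klb*, co-receptors of hormone-like FGFs, were listed at 0 throughout.

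All 29 adaptors and relay genes were tested, and 25 of them changed by less than 2-fold or did not pass (median log2 fold change 0.13). Of all tested genes, 13.2% were called higher and 10.5% lower. *Pik3r1*, the gene of a regulatory subunit of PI3 kinase, had coverage of 14.4, 10.3 and 8.8 in the KSFM-Ca2+ libraries and 78.3, 89.2 and 83.0 in the DKSFM libraries. This 8.18-fold rise (log2 fold change 3.03 ± 0.05 SE, adjusted p = 1.26e-09 in limma) was the largest of the list. The docking protein gene *Gab1* rose from 22.7, 17.5 and 12.8 to 45.6, 45.7 and 47.1 (log2 fold change 1.53, adjusted p = 1.73e-07). In both genes the lines stood apart, as the naming rule required. The FGF receptor adaptor *Frs2*, given for its role and outside the naming rule, had a log2 fold change of 0.37 (adjusted p = 0.001).

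Feedback inhibitors, which are induced by FGF and other growth factor signals and dampen them, were listed with 13 genes. Of the 9 tested, 0 were called higher and 5 lower in the DKSFM cells (median log2 fold change -1.02), beside 13.2% and 10.5% of all tested genes. At an unadjusted p under 0.05 in limma the counts were 0 and 8 (40.6% and 41.3% of all tested genes). The 5 lower calls became 3 without KSFM-Ca2+ replicate 3, without DKSFM replicate 2 or with a pseudocount of 0.5, and 2 with a pseudocount of 1 or with the libraries named as combined only. Summed normalized coverage of the list was 380.4, 364.0 and 368.9 in the KSFM-Ca2+ libraries and 255.3, 257.9 and 272.0 in the DKSFM libraries. *Dusp6*, coding for a phosphatase of ERK, had coverage of 41.7, 29.5 and 27.6 in the KSFM-Ca2+ libraries and 5.9, 6.5 and 7.9 in the DKSFM libraries. This was the largest fall among them, 4.41-fold without overlap (log2 fold change -2.14 ± 0.11 SE, adjusted p = 4.85e-07 in limma).

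The other 4 calls lay close to the 2-fold line. Sprouty gene *Spry2* went from 19.8, 15.6 and 11.8 to 7.0, 6.2 and 7.5 (log2 fold change -1.04, adjusted p = 1.97e-05), and *Spred2* from 36.5, 28.5 and 21.7 to 11.6, 11.7 and 13.6 (-1.09, adjusted p = 5.41e-06). *Dusp5* went from 20.2, 18.6 and 15.9 to 8.4, 6.6 and 9.4 (log2 fold change -1.05, adjusted p = 2.47e-04), and *Dusp9* from 27.2, 20.6 and 19.0 to between 9.7 and 10.3 (-1.02, adjusted p = 7.85e-07). In all 4 the lines did not overlap, which was not counted over all tested genes. *Spry2* was not called with pseudocounts of 0.5 and 1, without DKSFM replicate 2 (-0.93) and with the libraries named as combined only (adjusted p = 0.0132). The same held for *Dusp5* with a pseudocount of 1, without KSFM-Ca2+ replicate 3 or DKSFM replicate 2 (-0.88) and with combined libraries only (adjusted p = 0.0257). *Dusp9* lost its call with pseudocounts of 0.5 and 1 and without KSFM-Ca2+ replicate 3 (-0.98), and *Spred2* with combined libraries only (-1.0). *Spry1* (log2 fold change -0.29, adjusted p = 0.0539) and *Spred3* (-0.19, adjusted p = 0.287) did not pass and overlapped. *Spred1* (-0.35, adjusted p = 2.93e-04) and *Dusp7* (-0.25, adjusted p = 1.36e-04) passed the adjusted p but not the fold. *Spry3* was listed at 0, *Spry4* reached 0.1 in 1 library, and *Dusp4* and *Il17rd* stayed at or under 0.8 and were not tested.

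Transcription targets, genes known to be raised by FGF signalling but also by other growth factors, were 12, of which 10 were tested, 1 was called higher and 6 lower in the DKSFM cells (median log2 fold change -1.94), beside 13.2% and 10.5% of all tested genes. The counts at an unadjusted p under 0.05 in limma were 3 and 7 (40.6% and 41.3% of all tested genes). The ETV factor gene *Etv4* had coverage of 265.5, 200.6 and 153.0 in the KSFM-Ca2+ libraries and 11.7, 13.4 and 15.6 in the DKSFM libraries. Its fall was 13.7-fold with no overlap (log2 fold change -3.78 ± 0.10 SE, adjusted p = 1.46e-08 in limma). *Etv5* went from 18.4, 14.5 and 12.0 to 0.9, 0.8 and 0.5, a 16.9-fold fall (log2 fold change -4.08 ± 0.18 SE, adjusted p = 2.08e-07 in limma), with -3.11 at a pseudocount of 1. *Etv1*, a further gene of these factors, stayed at or under 0.3 and was not tested.

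The cyclin D1 gene *Ccnd1*, at 993.9, 758.4 and 653.4 in the KSFM-Ca2+ libraries and 160.7, 171.6 and 171.4 in the DKSFM libraries, fell 4.35-fold (log2 fold change -2.12 ± 0.03 SE, adjusted p = 1.08e-09 in limma). *Fosl1*, a member of the AP-1 family, went from 20.2, 16.2 and 16.7 to 3.8, 2.6 and 2.8 (log2 fold change -2.39, adjusted p = 2.76e-06). The early response gene *Ier3* went from 476.2, 373.8 and 350.1 to 66.5, 77.3 and 70.2 (-2.36, adjusted p = 8.31e-09), and *Phlda1* from 37.6, 31.4 and 26.4 to 8.0, 8.6 and 9.0 (-1.76, adjusted p = 8.16e-08). Each of these 4 genes was lower in all DKSFM libraries than in any KSFM-Ca2+ library, which was not counted over all tested genes. The ephrin receptor gene *Epha4* went up, from 9.1, 7.0 and 6.1 to 17.4, 20.4 and 17.9 (log2 fold change 1.44, adjusted p = 1.64e-07). Under 2-fold lay the early response gene *Egr1* (-0.62, adjusted p = 2.86e-04), *Fos* (0.94, adjusted p = 4.92e-07) and *Myc* (0.58, adjusted p = 1.26e-06), so that the list did not move as a block. *Gbx2* was listed at 0. Whether the change in receptor coverage and the change in these lists are linked was not tested.

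**Figure D3:**
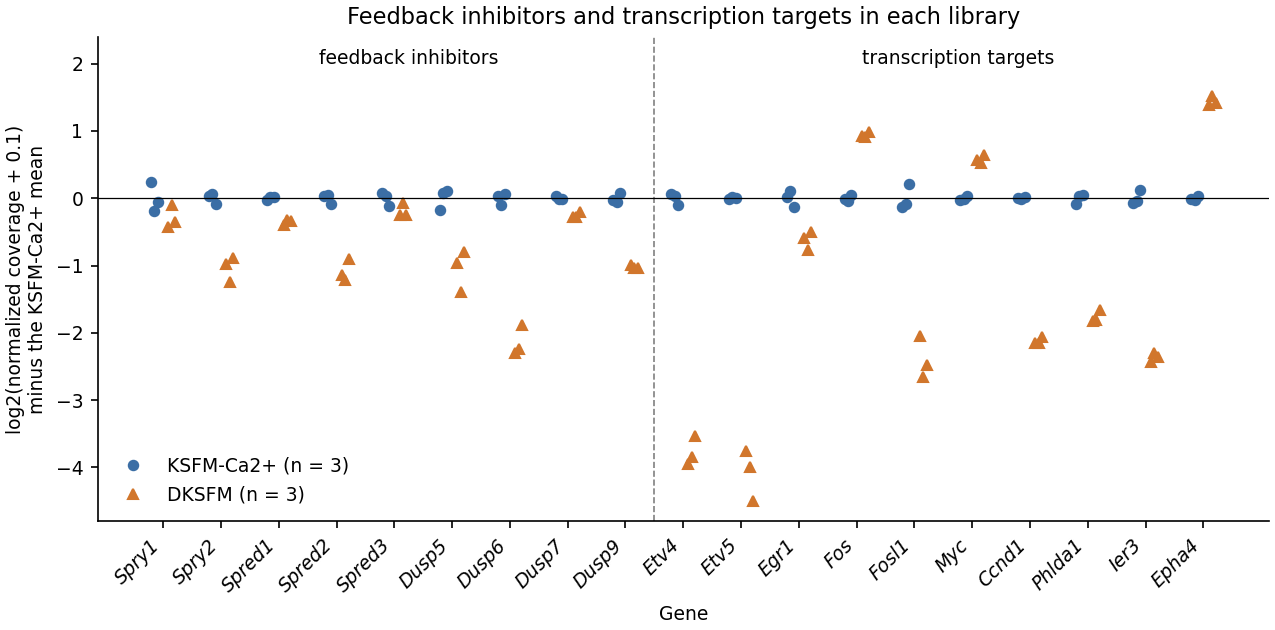
Points show log2(normalized coverage + 0.1) minus the KSFM-Ca2+ mean of each gene (vertical axis) for the tested feedback inhibitors and transcription targets (horizontal axis), circles for the 3 KSFM-Ca2+ and triangles for the 3 DKSFM libraries. *Etv4* and *Etv5* lie lowest in the DKSFM libraries, at mean log2 fold changes of -3.78 and -4.08, while *Fos*, *Myc* and *Epha4* lie above the line at 0.

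Heparan sulfate proteoglycans hold FGFs at the cell surface. Of 12 core protein genes, 10 were tested, with 4 called higher and 0 lower in the DKSFM cells (median log2 fold change 0.20), beside 13.2% and 10.5% of all tested genes. At an unadjusted p under 0.05 in limma the counts were 5 and 4, beside 40.6% and 41.3% of all tested genes. All 4 called genes were glypicans. Of these, *Gpc6* and *Gpc3* entered the test only through their DKSFM values, and with a filter on every library 2 were called. *Gpc6* was listed at 0 in the 3 KSFM-Ca2+ libraries but had 4.9, 5.3 and 5.3 in the DKSFM libraries (adjusted p = 3.47e-08), so no fold is given. *Gpc3* went from 0.2, 0.1 and 0.2 to 1.6, 1.9 and 1.2 (adjusted p = 2.61e-05). Its log2 fold change ran from 1.17 to 2.94 over the alternative settings, and from 2.55 to 2.94 when each library was left out. It thus depends on the pseudocount and on the libraries used. *Gpc4* went from 12.0, 9.2 and 8.0 to 29.7, 35.2 and 30.0 (log2 fold change 1.82, adjusted p = 3.89e-08). *Gpc1*, named after its values were seen, had a log2 fold change of 1.64. In all 4 glypicans the lines did not overlap, which the naming rule required of all but *Gpc1*. By summed normalized coverage the list was not higher, at 1578, 1551 and 1594 in the KSFM-Ca2+ libraries and 1399, 1430 and 1476 in the DKSFM libraries. Most of it came from the syndecan gene *Sdc1*, also named after its values were seen, at 1127 ± 10.8 and 961.8 ± 34.0 (SD, n = 3 each).

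Of 24 genes for enzymes that build or trim heparan sulfate, 15 were tested, with 3 called higher and 1 lower (median log2 fold change 0.33), beside 13.2% and 10.5% of all tested genes. At an unadjusted p under 0.05 in limma the counts were 9 and 6 (40.6% and 41.3% of all tested genes). The count higher was 2 with a pseudocount of 1 or with a filter on every library. The count lower was 3 without DKSFM replicate 1, and 2 without DKSFM replicate 3, without KSFM-Ca2+ replicate 3, with quantile normalization or with no filter. *Sulf2*, coding for an extracellular sulfatase that removes 6-O-sulfates, had coverage of 633.8, 457.6 and 384.5 in the KSFM-Ca2+ libraries and 1314.2, 1336.3 and 1314.4 in the DKSFM libraries. Its 2.97-fold rise had no overlap (log2 fold change 1.57 ± 0.03 SE, adjusted p = 5.97e-09 in limma). *Hs6st1*, coding for an enzyme that adds such sulfates, went the other way, from 79.5, 61.2 and 45.8 to 24.4, 26.9 and 26.5 (log2 fold change -1.11, adjusted p = 4.71e-07). *Extl1*, a glycosyltransferase gene, was at 0.1 in each KSFM-Ca2+ library but at 0.8, 1.5 and 0.8 in the DKSFM libraries (adjusted p = 6.85e-05). It entered the test only through its DKSFM values and was not called with a pseudocount of 1 (log2 fold change 0.90) or with the libraries named as combined only (adjusted p = 0.0114, the largest over the alternatives). The 3-O-sulfotransferase gene *Hs3st6* went from 7.8, 6.7 and 6.3 to 14.2, 18.8 and 15.6 (log2 fold change 1.32, adjusted p = 7.52e-06).

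The splice form of an FGF receptor decides which ligands it binds. Of 13 genes for regulators of this splicing, 11 were tested and 0 were called in either direction (13.2% higher and 10.5% lower over all tested genes), with log2 fold changes from -0.91 to 0.85 and a median of 0.17. All 11 had an adjusted p under 0.01 in limma, as did 72.6% of all tested genes. At an unadjusted p under 0.05 the counts were 6 higher and 5 lower, beside 40.6% and 41.3% of all tested genes. *Esrp1* and *Esrp2*, whose products favour the epithelial exon of *Fgfr2* and which were chosen for that role after their values were seen, had normalized coverage of 377.4 ± 9.22 against 424.7 ± 6.11 and 22.7 ± 0.919 against 39.4 ± 1.56 (SD, n = 3 each). Both were thus present in both lines, with differences larger than the spread between replicates but under 2-fold.

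**Figure D4:**
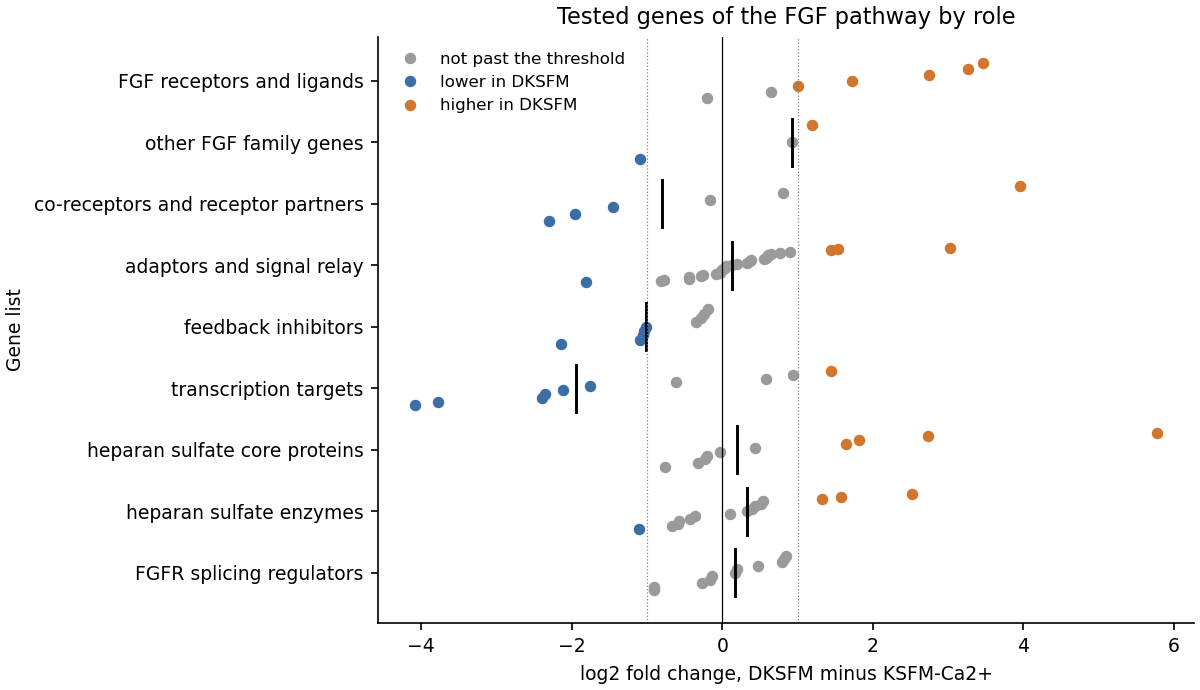
Each point is a tested gene, placed by its log2 fold change (DKSFM minus KSFM-Ca2+, horizontal axis) in the row of its list (vertical axis); blue and orange points were called lower and higher, grey points were not called, black bars are list medians (none for receptors and ligands, where *Fgfr1* and *Fgf1* depend on the pseudocount) and dotted lines mark 2-fold. Feedback inhibitors sit at a median of -1.02 and transcription targets at -1.94.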

How the data were processed

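RNA-seq values were taken for 6 libraries, grouped by their labels. The authors sequenced directional poly(A) libraries, aligned them to mm10 with STAR and ran DESeq2. They deposited a signal, the mean read coverage per base of each gene, unscaled and to 1 decimal. How coverage was computed, what a replicate was, and why 4 files are named as combined are not stated, so p-values measure only the spread between these samples. Coverage is not a count, so no count model was fitted here. Values were scaled with an unweighted trimmed mean (trims of 30% of M and 5% of A) and tested with limma with an intensity trend, without covariates, as log2(normalized coverage + 0.1). Fold changes are on that scale, which understates those of low genes. R 4.3.3, limma 3.58.1, Python 3.11.15, pandas 2.3.3 and matplotlib 3.10.9 were used, and the fit was tested on simulated data. Positions are those of RefSeq on GRCm38.p6, strands and exon overlaps those of GENCODE.

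The members and lists were chosen with earlier results of these data known. Genes named are the 10 members, other FGF family genes above 0, all feedback inhibitors and transcription targets, up to 3 genes per direction in each other list with the largest called change and no overlap, *Nudt6*, and the 3 genes most like *Fgfr2* and *Fgfr3*. Some genes that this rule takes are not reported here. Alternatives were other scalings, filters and pseudocounts, no trend, a replicate block, each library left out, and the libraries named as combined only.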

Additional observations from a re-analysis of the deposited data

How the results depend on the processing

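Under 16 alternative settings, *Fgfr2* kept a log2 fold change of 2.69 to 2.82 and *Fgfr3* one of 1.67 to 1.76, both called under each. *Fgfr1* (1.34 to 3.70) and *Fgf1* (1.08 to 3.64) were called under the 15 settings that tested them. With a filter on every library they were not tested, which left 3 members called higher. Over all genes, that filter took those higher in DKSFM from 1636 to 1032 and those lower from 1307 to 955. Quantile normalization gave 1463 genes higher and 1487 lower, so the larger count changed sides. Leaving out each library in turn gave 1610 to 1704 genes higher, 1295 to 1328 lower, and 4 to 5 members higher. The feedback inhibitors called lower went from 5 to 3 with a pseudocount of 0.5, 2 with a pseudocount of 1, 2 with the libraries named as combined only and 3 to 5 when each library was left out. Over all named genes and settings, 1854 values kept their direction and side of the threshold, 25 lost the call, 6 gained it and 12 changed sign.

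The sign changes were all in genes that were not called, and their cause was not tested. With the libraries named as combined only, *Fgfrl1* was at 0.006, *Sos1* at 0.03 and *Agrn* at 0.03. Quantile normalization put *Ptpn11* at 0.02, *Hras* at 0.05 and *Braf* at -0.10. *Hras* was at 0.0052 with relative log expression size factors, and *Braf* at -7.9e-05 with library totals. Leaving out each library, *Sos1* ranged from -0.04 to 0.0048, *Hras* from -0.02 to 0.02 and *Braf* from -0.0091 to 0.05.

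The replicate block gave 1641 genes higher and 1304 lower. Replicate numbers did not pair the samples, with correlations of deviations of -0.005, 0.024 and -0.006 between same-numbered libraries.

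With 3 libraries per line and 1 decimal of coverage, genes near 0.1 have no measurable fold change, and expression below the rounding step is not seen. The combined-only setting has 1 KSFM-Ca2+ library, assumed to vary like the others.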
